A study of Homo sapiens with 28 samples.

Results

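The genes described are 10 members of the BMP and TGF-beta signalling pathway: the ligands TGFB1, TGFB2, BMP2 and BMP4, the secreted matrix protein TGFBI, the ID factors ID1, ID2 and ID3, and the inhibitory SMADs SMAD6 and SMAD7. They were taken by gene symbol from a table of 18961 amplicons, in which each of them has 1 amplicon, and all 10 were among the 13100 genes that passed a filter on low values. The libraries came from 4 established lines of human liver cancer: HepG2, a hepatoblastoma line, and the carcinoma lines Hep3B, HuH7 and PLC/PRF/5. In ovo groups (4 libraries per line) were tumours that formed after cells were grafted on the chorioallantoic membrane, the vascular membrane under the shell, of white leghorn chicken eggs at embryonic day 9, and that were removed at day 18. In vitro groups (3 libraries per line) were cultures of the same lines. A tumour in the egg also holds chick cells, and every amplicon is of human design. Each line is a single established line, and no label says that the libraries of a group came from separate eggs or separate cultures. A p value here reflects how much libraries within groups varied, pooled over all 8 groups of 1 fit. That fit takes tumours and cultures of all lines to vary alike, and the variation may be only technical. Tumour RNA and culture RNA were purified with different column kits, so kit and condition cannot be told apart.

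TGF-beta and BMP ligands are secreted dimers that bind pairs of serine/threonine kinase receptors at the cell surface. TGF-beta receptors pass the signal to SMAD2 and SMAD3, BMP receptors to SMAD1, SMAD5 and SMAD9, and both sets enter the nucleus with SMAD4. The ID genes are direct BMP targets whose products bind E proteins and keep them off DNA, and SMAD6 and SMAD7 are induced by the signal and inhibit it in turn. In the liver, TGF-beta restrains hepatocyte division and drives fibrosis, and BMP signalling in hepatocytes sets the level of the iron hormone hepcidin.

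The amplicons of the ID genes and of the inhibitory SMADs are shown because members of these 2 families resemble each other and changed differently. Capitals mark the longest run of bases that an amplicon shares with the amplicon of its nearest family member here. All 10 amplicons lay wholly in coding sequence on GRCh38, and none matched a transcript of another gene exactly. The longest shared runs were 7 bases for ID1 (with ID2), 11 bases for ID2 and ID3 (with each other) and 6 bases for SMAD6 and SMAD7.
ID1, exon 1, chr20:31605648-31605772, plus strand: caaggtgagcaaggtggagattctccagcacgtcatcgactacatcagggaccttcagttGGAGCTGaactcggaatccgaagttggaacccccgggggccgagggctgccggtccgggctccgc
ID2, exon 3, chr2:8682223-8682333, plus strand: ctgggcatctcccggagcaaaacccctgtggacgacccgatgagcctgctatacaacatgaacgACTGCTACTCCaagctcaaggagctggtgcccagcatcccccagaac
ID3, exon 1, chr1:23559249-23559329, minus strand: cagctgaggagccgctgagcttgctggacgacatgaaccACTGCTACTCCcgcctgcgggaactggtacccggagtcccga
SMAD6, exon 4, chr15:66781156-66781260, plus strand: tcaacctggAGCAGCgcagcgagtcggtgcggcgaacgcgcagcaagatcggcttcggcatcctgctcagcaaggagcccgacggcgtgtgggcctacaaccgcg
SMAD7, exon 4, chr18:48921393-48921618, minus strand: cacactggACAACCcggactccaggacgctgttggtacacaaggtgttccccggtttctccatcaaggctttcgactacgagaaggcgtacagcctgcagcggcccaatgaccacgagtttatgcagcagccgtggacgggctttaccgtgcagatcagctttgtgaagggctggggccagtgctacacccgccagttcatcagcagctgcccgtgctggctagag
The other amplicons lay in exons 5 to 6 of TGFB1 (chr19:41332171-41341890), exons 6 to 7 of TGFB2 (chr1:218436035-218437465), exons 14 to 17 of TGFBI (chr5:136060926-136063193), exon 3 of BMP2 (chr20:6778576-6778829) and exon 4 of BMP4 (chr14:53950545-53950682), so that a transcript lacking these exons is not read. BMP2, TGFB2 and SMAD7 have long amplicons (254, 236 and 226 bases), and SMAD6, ID3 and ID1 have the highest GC contents (67.6%, 64.2% and 62.4%).

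Levels are given as CPM (read counts scaled to the same total in each library), after TMM scaling between libraries. A fold change is the tumour level over the culture level, as a difference of log2(CPM + 1), and is too small for genes with only a few CPM. A gene was called higher or lower at a limma p under 0.05 after Benjamini-Hochberg adjustment over the 13100 genes. Depth was 6085750 to 15086465 reads in the 16 tumours and 6205368 to 8662998 reads in the 12 cultures, so that 3 reads, taken as the floor, were 0.199 to 0.493 CPM in tumours and 0.346 to 0.483 CPM in cultures before scaling. Such floors cover counting error only. Long amplicons (200 bases or more, 1906 in all) were low in several tumour libraries. Their median log2 difference from the line's cultures was lowest in tumour 3 of HepG2 (-0.93, others -0.32 to -0.03) and of HuH7 (-1.17, others -0.63 to 0.01). In Hep3B it was -1.58 in tumour 3 but also -1.09 in tumour 2 and -0.78 in tumour 4, against -0.28 in tumour 1, so that leaving out tumour 3 leaves much of the difference in that line. In PLC/PRF/5 tumours it lay between -0.24 and 0.00. Results on long or GC-rich amplicons are therefore given also with the trends of each library with amplicon GC content and length removed, and the counts also without the 4 tumours numbered 3.

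ID1 and ID3 fell in tumours of all 4 lines, while ID2 fell in Hep3B and rose in PLC/PRF/5. SMAD7 was lower on the mean of the lines, and SMAD6 rose in 2 lines. The ligands changed by line, with TGFB1 lower in HepG2 tumours and higher in Hep3B tumours, and BMP2 lower in Hep3B and HuH7 tumours and higher in PLC/PRF/5 tumours. With GC and length trends removed, the TGFB1 rise in Hep3B did not pass (adjusted p = 0.84). Nor did the BMP2 falls in Hep3B (adjusted p = 0.171) and HuH7 (adjusted p = 0.223), or the mean rise of SMAD6 (adjusted p = 0.12). In HepG2, 0 genes of the 10 were called higher and 5 lower, where 12.1% of all tested genes were called higher and 13% lower. In Hep3B tumours 2 were higher and 7 lower, where the shares of all tested genes were 24.6% and 27.4%. HuH7 tumours had 1 higher and 3 lower, beside 23.6% and 19.8% of all genes. PLC/PRF/5 tumours had 3 higher and 2 lower, beside 11.9% and 5.61%. The median log2 fold change of the 10 was -1.19 (HepG2), -1.66 (Hep3B), -0.10 (HuH7) and -0.45 (PLC/PRF/5), and that of all tested genes was -0.01, -0.05, 0.01 and 0.07 in the same lines. On the mean of the 4 lines, 1 gene was higher (SMAD6) and 6 were lower (TGFB2, TGFBI, ID1, ID2, ID3 and SMAD7), beside 33.7% and 32.6% of all genes. The mean fall of TGFB2, -0.87 ± 0.15 (adjusted p = 4.01e-05), was -0.16 with GC and length trends removed and did not pass (adjusted p = 0.239). The mean fall of ID2, -0.29 ± 0.12 (adjusted p = 0.0359), was kept under 6 of 11 alternatives, with adjusted p values from 0.000202 to 0.152, and was lost when any 1 of 15 of the 28 libraries was left out. The count in PLC/PRF/5 was 3 in place of 5 when PLC/PRF/5 culture 1, culture 3, tumour 1 or tumour 4 was left out, and 8 without the 4 tumours numbered 3.

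**Figure D1:**
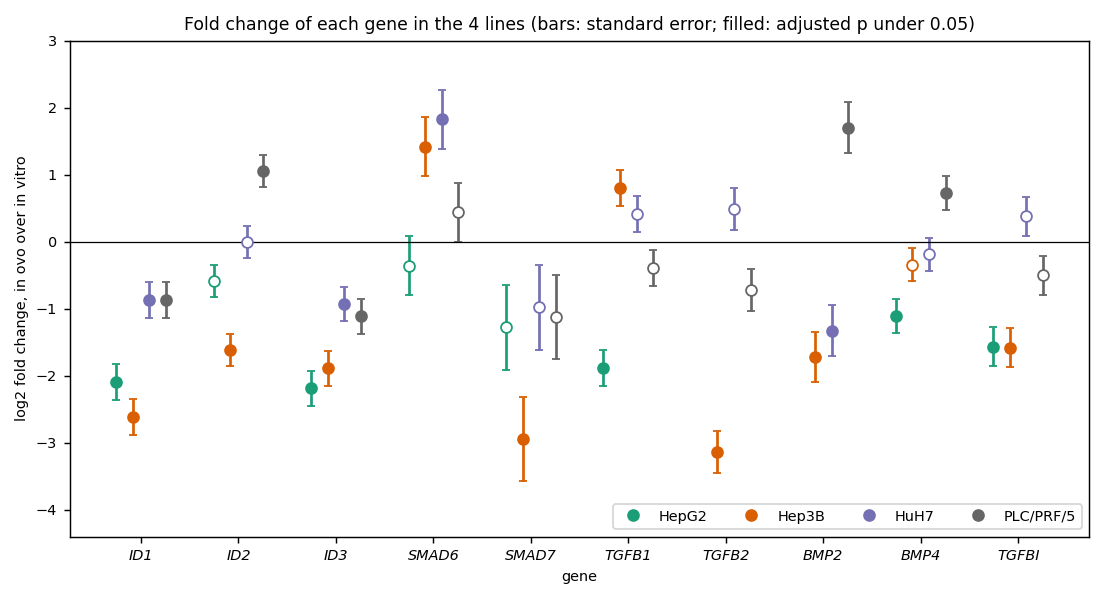
Log2 fold change in ovo over in vitro (y axis) of each of the 10 genes (x axis) in the 4 lines (colours), with the standard error as bars and filled dots for genes with an adjusted p under 0.05. ID1 and ID3 lie below 0 with filled dots in all 4 lines, SMAD6 lies above 0 in Hep3B and HuH7, and BMP2 and ID2 lie on opposite sides of 0 in Hep3B and PLC/PRF/5. TGFB2 and BMP2 are not drawn for HepG2, where no library held more than 2 reads.

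ID1, whose product blocks E proteins such as TCF3, was lower in tumours of every line. It was read at 59.9, 61.6, 80.8 and 83.4 CPM in HepG2 tumours, against 281, 292 and 340 CPM in HepG2 cultures. Hep3B tumours had 57.8, 51.6, 24.3 and 81.6 CPM, against 279, 319 and 326 CPM in Hep3B cultures. Tumours and cultures did not overlap in either line. The log2 fold change was -2.09 ± 0.27 (SE) in HepG2 (adjusted p = 2.62e-06) and -2.61 ± 0.27 in Hep3B (adjusted p = 4.39e-08). HuH7 had the highest ID1 in both settings, with 512, 511, 536 and 574 CPM in tumours, against 1055, 943 and 921 CPM in cultures. The fall there was -0.87 ± 0.27 (adjusted p = 0.0139), and the groups again did not overlap. PLC/PRF/5 tumours had 34.3, 46.6, 68.1 and 33.2 CPM, against 87.9, 60.9 and 98.1 CPM in PLC/PRF/5 cultures. Here tumour 3 lay above the lowest culture, and the fall of -0.87 ± 0.27 (adjusted p = 0.0285) was lost without culture 1, culture 3, tumour 1 or tumour 4, when the line was fitted alone (adjusted p = 0.0651), or with a replicate block (adjusted p = 0.0708). The HuH7 call was lost without HuH7 culture 1. The adjusted p of ID1 over the 12 alternatives ranged from 0.00014 to 0.0708 in PLC/PRF/5 and from 0.000532 to 0.0186 in HuH7. With GC and length trends removed the 4 falls were -2.32, -3.37, -1.48 and -1.15, in the order HepG2, Hep3B, HuH7 and PLC/PRF/5, so they were as large without those trends.

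ID3, which acts on the same partners as ID1, fell in all 4 lines as well. HepG2 tumours had 32.2, 37.4, 49.7 and 39.8 CPM, against 166, 191 and 191 CPM in cultures. Hep3B tumours had 75.2, 106, 123 and 68.2 CPM, against 324, 341 and 349 CPM in cultures. Every tumour was below every culture in both lines, and the log2 fold changes were -2.19 ± 0.26 (adjusted p = 5.62e-07) and -1.89 ± 0.26 (adjusted p = 2.39e-06). In HuH7, tumours had 719, 356, 610 and 398 CPM, against 941, 989 and 921 CPM in cultures. In PLC/PRF/5, tumours had 107, 211, 91.9 and 128 CPM, against 293, 216 and 336 CPM in cultures. The groups did not overlap, though PLC/PRF/5 tumour 2 lay close to culture 2. The log2 fold changes were -0.93 ± 0.26 in HuH7 (adjusted p = 0.00625) and -1.11 ± 0.26 in PLC/PRF/5 (adjusted p = 0.00342), and the HuH7 call was lost when the line was fitted alone (adjusted p = 0.0511). GC and length trends removed, the falls were -2.63, -3.07, -1.75 and -1.46 in HepG2, Hep3B, HuH7 and PLC/PRF/5. Of all 13100 genes, 80 (0.611%) were called lower in all 4 lines, ID1 and ID3 among them, and 200 (1.53%) were called higher in all 4, none of the 10 among them.

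ID2 did not share that pattern. Hep3B tumours had 90.3, 79.3, 71.5 and 95.9 CPM, against 254, 264 and 256 CPM in cultures, a fall of -1.61 ± 0.24 (adjusted p = 6.19e-06). PLC/PRF/5 tumours had 8.41, 27.1, 11.2 and 13.3 CPM, against 4.7, 5.82 and 8.13 CPM in cultures, a rise of 1.05 ± 0.24 (adjusted p = 0.00254). The lowest PLC/PRF/5 tumour lay just above the highest culture, and the call was lost when the line was fitted alone (adjusted p = 0.0867). HepG2 tumours ranged from 133 to 177 CPM, against 223 to 236 CPM in cultures, and the difference of -0.58 ± 0.24 did not pass (adjusted p = 0.0757), though it did under 4 of the 12 alternatives, with a lowest adjusted p of 0.0191. HuH7 tumours ranged from 231 to 315 CPM and HuH7 cultures from 267 to 277 CPM, so the groups overlapped, with a log2 fold change of -0.01 ± 0.24 (adjusted p = 0.99). The 4 fold changes differed between lines by limma's F test of the line by condition interaction for ID2 (adjusted p = 5.53e-06), ID1 (0.000813) and ID3 (0.0162). The ID3 interaction was lost with DESeq2 size factors (adjusted p = 0.0522) and with a replicate block (adjusted p = 0.0705).

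Across the 28 libraries ID1 and ID3 correlated with Pearson's r of 0.78, and of 0.84 once the mean of each line was taken out. ID1 and ID2 correlated at 0.68 and 0.57, and ID2 and ID3 at 0.24 and 0.49, by the same 2 measures. The points share line, condition and library composition, so these values are descriptions. The upstream windows of ID1 and ID3 are shown because the genes moved together. They hold the 250 bases before the transcription start from RefSeq, GRCh38.p14, with capitals for a match to GGCGCC, a palindromic core of BMP-responsive elements, or to CAGAC, a SMAD-binding box, on either strand. The motifs cannot overlap fully, since neither contains the other.
ID1, chr20:31605039-31605288, plus strand: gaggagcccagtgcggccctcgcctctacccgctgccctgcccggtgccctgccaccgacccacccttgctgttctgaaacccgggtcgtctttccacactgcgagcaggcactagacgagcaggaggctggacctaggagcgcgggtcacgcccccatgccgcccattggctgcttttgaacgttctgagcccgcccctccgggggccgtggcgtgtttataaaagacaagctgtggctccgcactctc
ID3, chr1:23559502-23559751, minus strand: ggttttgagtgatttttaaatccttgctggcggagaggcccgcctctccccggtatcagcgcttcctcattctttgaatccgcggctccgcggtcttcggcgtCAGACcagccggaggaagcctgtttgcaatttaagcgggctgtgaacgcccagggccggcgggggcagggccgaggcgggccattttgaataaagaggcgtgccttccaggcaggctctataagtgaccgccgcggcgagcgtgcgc
The ID1 window held neither motif, and the ID3 window held 1 CAGAC and 0 GGCGCC. Only these 250 bases were searched, so sites further from the start are not covered. Of 35116 windows of the same length, 16.4% held GGCGCC and 38% held CAGAC, and the ID2 window held neither.

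**Figure D2:**
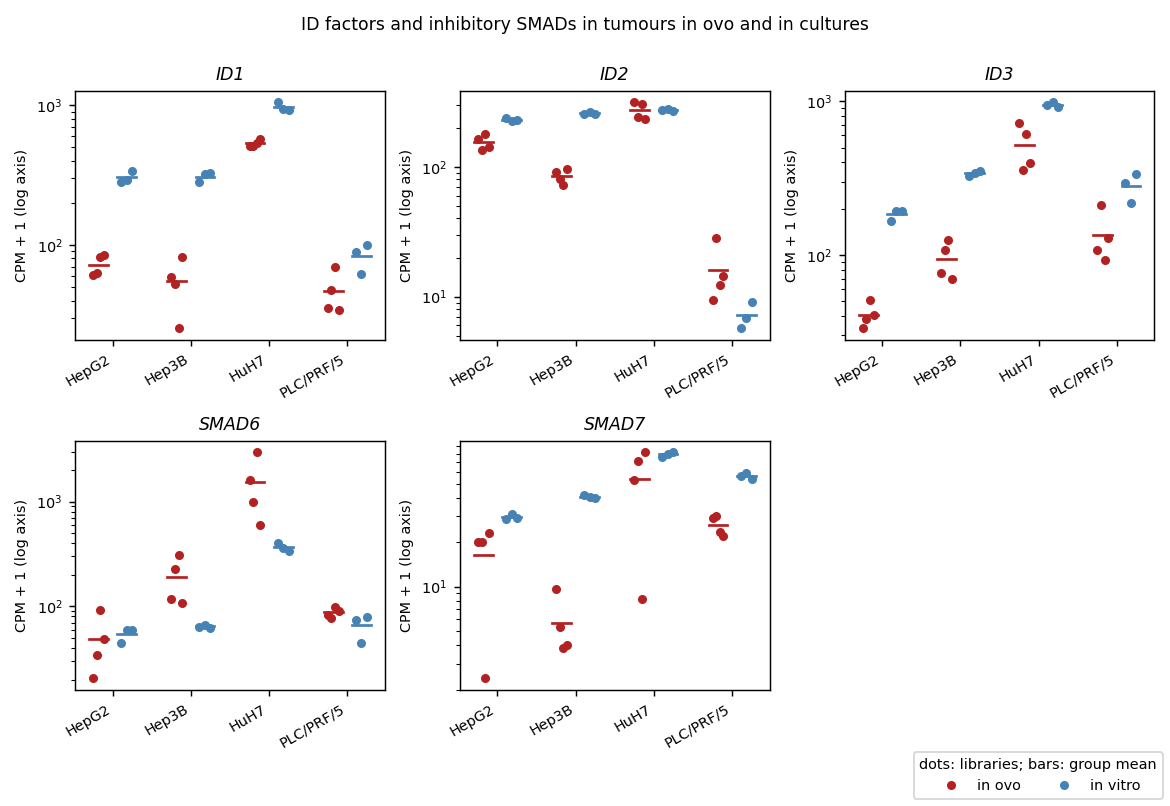
Level of ID1, ID2, ID3, SMAD6 and SMAD7 in each library (dots, CPM + 1 on a log axis) in tumours (red, left) and cultures (blue, right) of each line, with bars at the group means. ID1 and ID3 are lower in tumours of all 4 lines, SMAD6 is higher in HuH7 tumours (603 to 2972 CPM, against 333 to 403 CPM in cultures), and 1 HepG2 and 1 HuH7 tumour stand far below the rest for SMAD7.

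The inhibitory SMADs went opposite ways on the mean of the lines. SMAD6, which blocks mainly BMP receptor signalling, was higher, and SMAD7, which blocks both branches and recruits SMURF ubiquitin ligases to the receptors, was lower. SMAD6 was read at 1624, 982, 2972 and 603 CPM in HuH7 tumours, against 403, 361 and 333 CPM in HuH7 cultures. Hep3B tumours had 117, 224, 305 and 107 CPM, against 62.3, 66 and 61.4 CPM in cultures. All tumours lay above all cultures in both lines, tumour 3 was the highest in each, and the log2 fold changes were 1.83 ± 0.44 in HuH7 (adjusted p = 0.00185) and 1.42 ± 0.44 in Hep3B (adjusted p = 0.00908). With total counts alone in place of TMM the Hep3B rise was 0.45 and was not called (adjusted p = 0.203). HepG2 tumours had 19.5, 33, 90.7 and 47.5 CPM, against 43.3, 58 and 58.2 CPM in cultures. For PLC/PRF/5 the range was 77.2 to 96.6 CPM in tumours, against 43.7 to 78.6 CPM in cultures. In both lines the groups overlapped, and the log2 fold changes of -0.36 ± 0.44 (adjusted p = 0.602) and 0.44 ± 0.44 (adjusted p = 0.559) did not pass. The mean rise over the lines was 0.84 ± 0.22 (adjusted p = 0.00196), and the interaction passed (adjusted p = 0.0215). SMAD6 has the most GC-rich amplicon of the 10, and over the 16 tumours Spearman's rho between the difference from cultures and amplicon GC content, taken across amplicons, ran from -0.059 to 0.529. With GC and length trends removed the rises were 0.99 in HuH7 (adjusted p = 0.000861) and 0.57 in Hep3B (adjusted p = 0.0369), HepG2 gave a fall of -0.78 (adjusted p = 0.00789), and the mean of 0.20 no longer passed (adjusted p = 0.12).

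SMAD7 was read at 8.63, 4.28, 2.85 and 3.01 CPM in Hep3B tumours, against 41, 39.3 and 38.9 CPM in Hep3B cultures. This fall of -2.94 ± 0.63 (adjusted p = 0.000467) had no overlap between the groups. PLC/PRF/5 tumours had 28.4, 29.1, 22.3 and 20.9 CPM, against 55.5, 58 and 52.7 CPM in cultures. These groups did not overlap either, and yet -1.12 ± 0.63 did not pass in the fit over all lines (adjusted p = 0.243). The standard error is shared by the lines, and without the 4 tumours numbered 3 the PLC/PRF/5 difference was -1.07 and passed (adjusted p = 0.000652). HepG2 tumours had 19.1, 19.2, 1.38 and 22.1 CPM, against 27.9, 29.9 and 28 CPM in cultures. HuH7 tumours had 52.3, 70.5, 7.25 and 80.9 CPM, against 74.4, 78.6 and 80.8 CPM in cultures. Tumour 3 was by far the lowest in both, with 7 reads in HepG2 and 43 in HuH7, and these are 2 of the libraries in which long amplicons as a class were low. The log2 fold changes of -1.28 ± 0.63 in HepG2 (adjusted p = 0.145) and -0.98 ± 0.63 in HuH7 (adjusted p = 0.212) did not pass, and were -0.44 and -0.23 without the tumours numbered 3. The mean over the lines was -1.58 ± 0.31 (adjusted p = 0.000142), -1.40 with GC and length trends removed and -1.15 without the tumours numbered 3, each past the threshold. The interaction of SMAD7 was the 1 of 10 that did not pass (adjusted p = 0.201), beside 41.8% of all tested genes that did, and it passed without the tumours numbered 3 (adjusted p = 7.23e-07). SMAD6 and SMAD7 correlated with Pearson's r of 0.07 over the 28 libraries and of -0.73 with line means taken out, while their amplicons differ in GC content and in length (105 and 226 bases).

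**Figure D3:**
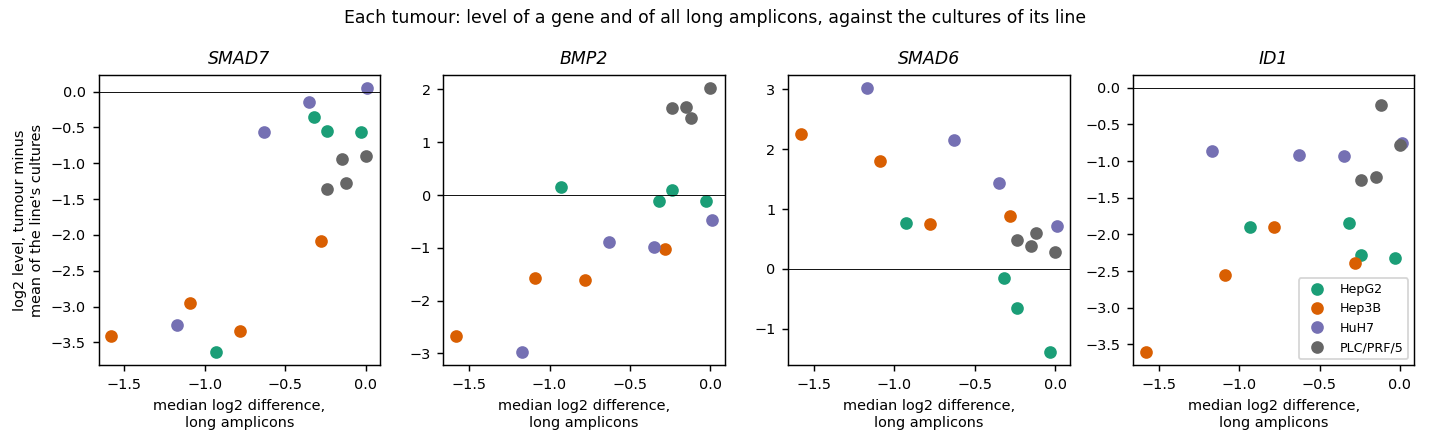
Log2 level of SMAD7, BMP2, SMAD6 and ID1 in each of the 16 tumours minus the mean of the line's cultures (y axis) against the median of the same difference over all amplicons of 200 bases or more (x axis), coloured by line. The lowest SMAD7 values of HepG2 and HuH7 sit in the tumours with the lowest long amplicons (-0.93 and -1.17), SMAD6 is highest in the same tumours, and ID1 is below 0 in all 16 tumours.

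TGFB1, the main TGF-beta ligand of the adult liver, moved in opposite directions in 2 lines. HepG2 tumours had 116, 143, 88.7 and 144 CPM, against 394, 488 and 475 CPM in cultures, a fall of -1.89 ± 0.27 (adjusted p = 7.61e-06). Hep3B tumours had 611, 689, 931 and 696 CPM, against 400, 435 and 408 CPM in cultures, a rise of 0.80 ± 0.27 (adjusted p = 0.0155). No tumour overlapped a culture in either line. The Hep3B rise was 0.08 with GC and length trends removed (adjusted p = 0.84) and was also not called without Hep3B tumour 3 or with total counts alone. Total counts alone moved the median of all genes in Hep3B by -0.69, which left 1205 genes called higher and 6820 lower, where TMM gave 3220 and 3594. HuH7 tumours had 320, 434, 220 and 340 CPM, against 237, 246 and 236 CPM in cultures, and PLC/PRF/5 tumours 261, 93.5, 201 and 273 CPM, against 275, 243 and 238 CPM in cultures. Groups overlapped in both, and neither the 0.41 ± 0.27 of HuH7 (adjusted p = 0.218) nor the -0.39 ± 0.27 of PLC/PRF/5 (adjusted p = 0.358) passed. The interaction of TGFB1 had an adjusted p of 1.3e-05.

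TGFB2, a second ligand of the same receptors, fell 8.80-fold in Hep3B tumours. These had 3.19, 3.53, 0.777 and 2.08 CPM, against 25.2, 29 and 27.2 CPM in Hep3B cultures (log2 fold change -3.14 ± 0.31, adjusted p = 1.69e-08). With GC and length trends removed the fall was -1.95 (adjusted p = 2.08e-07). HuH7 tumours had 50.3, 98.5, 31.7 and 93.1 CPM, against 43.2, 44.6 and 43.5 CPM in cultures, with tumour 3 alone below the cultures. The difference of 0.49 ± 0.31 did not pass (adjusted p = 0.204), but it was 1.37 with GC and length trends removed (adjusted p = 3.67e-05) and 0.80 without the tumours numbered 3 (adjusted p = 0.00527). The range in PLC/PRF/5 was 2.04 to 2.86 CPM in tumours, against 3.65 to 6.3 CPM in cultures, and the difference of -0.72 ± 0.31 did not pass (adjusted p = 0.114), though it did under 3 of the 12 alternatives, with a lowest adjusted p of 0.0231. In HepG2, TGFB2 was read 0 times in 3 tumours and once in tumour 4, against 2, 0 and 1 reads in the 3 cultures, so that no fold is given. The interaction of TGFB2 had an adjusted p of 1.44e-06.

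BMP2, which in mouse liver is made largely by sinusoidal endothelial cells, was lower in Hep3B and HuH7 tumours and higher in PLC/PRF/5 tumours. In PLC/PRF/5 the tumours had 198, 254, 170 and 195 CPM, against 58.3, 69.4 and 57.1 CPM in cultures, a rise of 1.70 ± 0.38 (adjusted p = 0.00237). Hep3B tumours had 13.5, 8.81, 3.62 and 8.55 CPM, against 31.5, 25 and 28.7 CPM in cultures (-1.72 ± 0.38, adjusted p = 0.000674). HuH7 tumours had 211, 198, 48.9 and 283 CPM, against 385, 394 and 397 CPM in cultures (-1.33 ± 0.38, adjusted p = 0.00728). No groups overlapped in these 3 lines, and tumour 3 was the lowest tumour in each. BMP2 has the longest amplicon of the 10, and with GC and length trends removed the PLC/PRF/5 rise was 2.06 (adjusted p = 1.45e-06), while the Hep3B and HuH7 differences were -0.43 (adjusted p = 0.171) and -0.39 (adjusted p = 0.223). The HuH7 fall was also not called when the line was fitted alone (adjusted p = 0.127). Without the tumours numbered 3 all 3 calls held, at 1.79, -1.45 and -0.79. In HepG2, BMP2 was read at most once in each of the 7 libraries. The interaction had an adjusted p of 4.49e-05.

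BMP4, a close relative of BMP2 that acts through the same receptors, was most highly read in HepG2 and HuH7. HepG2 tumours had 311, 380, 249 and 475 CPM, against 711, 787 and 737 CPM in cultures, a fall of -1.11 ± 0.25 (adjusted p = 0.00187) with no overlap. The 4 tumours of PLC/PRF/5 had 8.31, 7.14, 11 and 9.78 CPM, against 5.67, 4.1 and 5.3 CPM in cultures, a rise of 0.73 ± 0.25 (adjusted p = 0.047). The PLC/PRF/5 call lay at the threshold: its adjusted p ranged from 0.0123 to 0.175 over the 12 alternatives, of which 5 kept it. Hep3B tumours ranged from 38.1 to 90.6 CPM, against 76.7 to 78.1 CPM in cultures (-0.34 ± 0.25, adjusted p = 0.273). That difference was called under 3 of the 12 alternatives, at -1.30 with total counts alone (adjusted p = 0.000211), -0.63 with GC and length trends removed (adjusted p = 0.0411) and -0.58 without the tumours numbered 3 (adjusted p = 0.012). HuH7 tumours ranged from 302 to 706 CPM, against 522 to 542 CPM in cultures (-0.19 ± 0.25, adjusted p = 0.585). The interaction had an adjusted p of 0.00179.

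**Figure D4:**
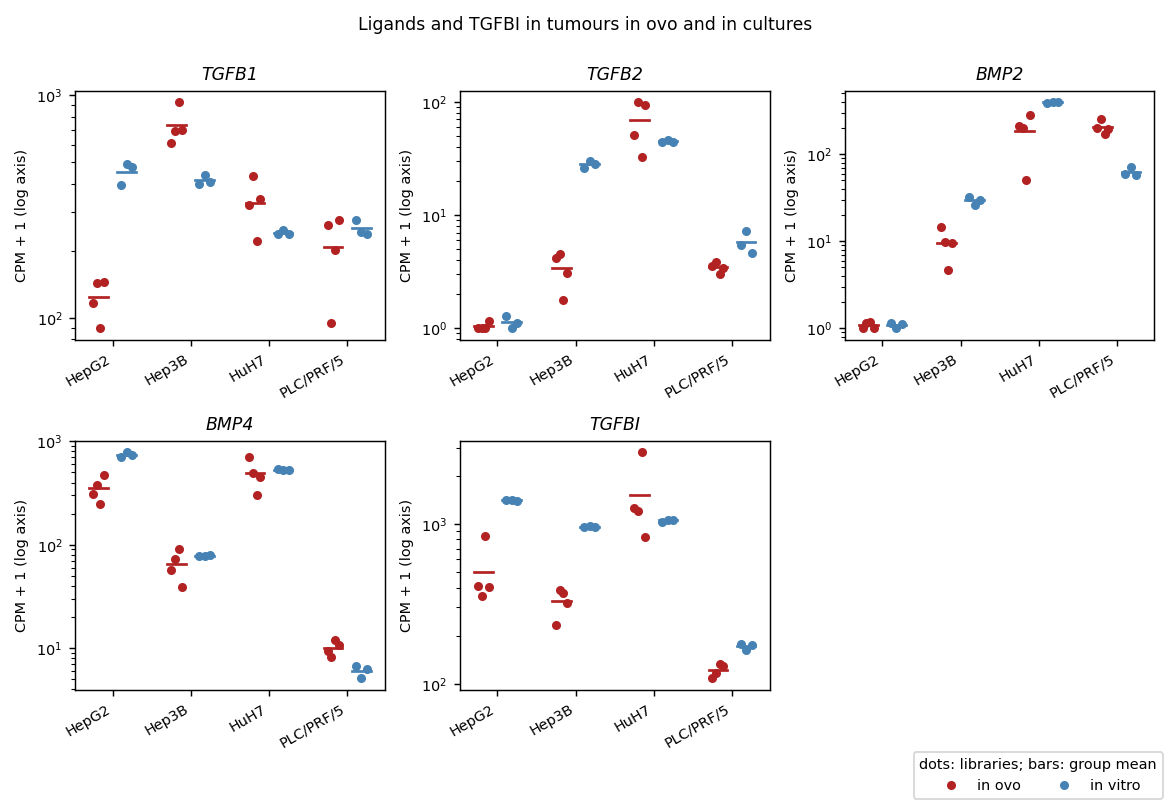
Level of TGFB1, TGFB2, BMP2, BMP4 and TGFBI in each library (dots, CPM + 1 on a log axis) in tumours (red, left) and cultures (blue, right) of each line, with bars at the group means. TGFB1 tumours lie below the cultures in HepG2 and above them in Hep3B, BMP2 tumours lie above the cultures in PLC/PRF/5 and below them in Hep3B and HuH7, and TGFB2 and BMP2 are at the bottom of the axis in HepG2.

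TGFBI, a secreted matrix protein named for its induction by TGF-beta, fell in 2 lines. HepG2 tumours had 409, 355, 838 and 404 CPM, against 1411, 1412 and 1390 CPM in cultures (-1.57 ± 0.29, adjusted p = 0.000179). Hep3B tumours had 233, 384, 367 and 320 CPM, against 953, 963 and 957 CPM in cultures (-1.58 ± 0.29, adjusted p = 8.51e-05). Tumours lay below cultures throughout, and the calls held under all 12 alternatives. In PLC/PRF/5, tumours read 107, 116, 132 and 128 CPM, against 177, 161 and 174 CPM in cultures. These did not overlap, but -0.50 ± 0.29 did not pass (adjusted p = 0.253). It passed under 3 of the 12 alternatives: the line fitted alone (adjusted p = 0.0131), the tumours numbered 3 left out (adjusted p = 0.0108) and total counts alone (adjusted p = 0.00979). HuH7 tumours had 1249, 1202, 2813 and 828 CPM, against 1033, 1061 and 1054 CPM in cultures, with 1 tumour below the cultures and 3 above (0.38 ± 0.29, adjusted p = 0.289). The interaction of TGFBI had an adjusted p of 0.00059. Among all tested genes, the closest to TGFBI over the 28 libraries by Pearson's r were FILIP1L (0.946), TP53INP2 (0.945) and CTGF (0.932), and for ID3 they were GADD45B (0.953), CYR61 (0.928) and RBMS2 (0.889). For ID1 they were ANKRD1 (0.952), DPH3 (0.935) and ARHGAP29 (0.930), and for SMAD6 CACNA1G (0.972), GABRB1 (0.956) and ENPEP (0.954). These values include differences between lines. With line means taken out, the closest were DUSP1 for TGFBI (0.936), MARS for ID3 (0.938), SLC31A2 for ID1 (0.927) and FLCN for SMAD6 (0.973). The closest genes of the other members are not given here.

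The order of the lines was in part the same in both settings. On average HuH7 had the most ID1, ID2, ID3, SMAD6, SMAD7 and TGFB2 in tumours and in cultures alike, though among cultures it did not pass against Hep3B, the next line, for ID2 (272 CPM in HuH7 and 258 CPM in Hep3B, adjusted p = 0.879) or TGFB2 (43.8 CPM in HuH7 and 27.1 CPM in Hep3B, adjusted p = 0.127). Culture libraries of HuH7 and Hep3B did not overlap for ID2 or TGFB2. ID1 averaged 533 ± 29.4 CPM in HuH7 tumours (n = 4), against 71.4 ± 12.4 CPM in HepG2 tumours, the next line. The order changed for TGFB1, which was highest in Hep3B tumours (732 ± 138 CPM). Among cultures TGFB1 was highest in HepG2 (453 ± 51.1 CPM), where the difference from Hep3B (414 ± 18.4 CPM) did not pass (adjusted p = 0.805). BMP2 was highest in PLC/PRF/5 tumours (204 ± 35.6 CPM), where the difference from HuH7 tumours (185 ± 98.2 CPM) did not pass (adjusted p = 0.358). Among cultures BMP2 was highest in HuH7 (392 ± 6.37 CPM). Neighbours in the order differed by the test in 20 of 30 cases among tumours and in 14 of 30 among cultures. The order is that of each gene, so no share of all tested genes is given. Without such a share the counts do not show whether the 10 genes differ from other genes in this. Groups held 4 tumours or 3 cultures, so these counts do not compare. None of the 6 neighbour pairs of SMAD7 passed. The test shares 1 spread over tumours and cultures, and SMAD7 cultures of neighbouring lines did not overlap (77.9 ± 3.26 CPM in HuH7, 55.4 ± 2.68 CPM in PLC/PRF/5, 39.8 ± 1.12 CPM in Hep3B and 28.6 ± 1.08 CPM in HepG2). Between tumours, 7 of the 10 genes differed between HepG2 and Hep3B (50.3% of all tested genes did), 9 between HepG2 and HuH7 (52.7%), 9 between HepG2 and PLC/PRF/5 (55.5%), 10 between Hep3B and HuH7 (48.9%), 7 between Hep3B and PLC/PRF/5 (66.5%) and 8 between HuH7 and PLC/PRF/5 (63.7%). Between cultures the counts for the same pairs were 4 (40%), 6 (44.6%), 7 (50.9%), 6 (34%), 7 (46.5%) and 8 (49.1%).

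Of 100 other genes of the pathway, 85 were tested and 15 did not pass the filter. HepG2 tumours had 8 of them higher and 23 lower, Hep3B tumours 24 and 27, HuH7 tumours 32 and 12, and PLC/PRF/5 tumours 11 and 10, with median log2 fold changes of -0.11, 0.00, 0.18 and 0.13. Over all 13100 genes the higher shares were 12.1%, 24.6%, 23.6% and 11.9% and the lower shares 13%, 27.4%, 19.8% and 5.61%, in that order of lines, with medians of -0.01, -0.05, 0.01 and 0.07. INHBE, an activin subunit of the liver, and CTGF, a matrix-associated protein induced by TGF-beta and by YAP, were called lower in all 4 lines, and the activin receptor ACVR2B was called higher in all 4. CTGF averaged 279 ± 125 CPM in HepG2 tumours and 1051 ± 10.5 CPM in HepG2 cultures, 31.1 ± 11.6 and 417 ± 3.28 CPM in Hep3B tumours and cultures, 1243 ± 531 and 2068 ± 29.1 CPM in those of HuH7, and 9.62 ± 2.54 and 50.6 ± 2.59 CPM in those of PLC/PRF/5 (SD, n = 4 tumours and 3 cultures). ACVR2B averaged 91 ± 12.6 CPM in PLC/PRF/5 tumours and 22.2 ± 0.715 CPM in cultures (log2 fold change 1.98, adjusted p = 6.61e-06), and 294 ± 101 CPM in Hep3B tumours and 70.3 ± 2.65 CPM in cultures (1.99, adjusted p = 1.91e-06). Its highest value was in tumour 3 of each line (399 CPM in HepG2, 432 CPM in Hep3B, 344 CPM in HuH7 and 101 CPM in PLC/PRF/5). Its rise with GC and length trends removed is not given here. INHBE averaged 86.7 ± 14.9 CPM in Hep3B tumours and 383 ± 26 CPM in cultures (-2.14, adjusted p = 8.92e-06). In PLC/PRF/5 the INHBE ranges overlapped, with 13.2 to 49.6 CPM in tumours and 49 to 66.6 CPM in cultures.

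Targets of TGF-beta (16 tested, TGFBI and SMAD7 among them) came out as 1 higher and 8 lower (HepG2), 4 and 8 (Hep3B), 6 and 3 (HuH7), and 1 and 4 (PLC/PRF/5), with medians of -1.33, -0.48, 0.27 and -0.43. In the same order of lines, 12.1%, 24.6%, 23.6% and 11.9% of all tested genes were higher and 13%, 27.4%, 19.8% and 5.61% lower, with medians of -0.01, -0.05, 0.01 and 0.07. TAGLN, an actin-binding protein, fell in HepG2 (9.88 ± 3.24 CPM in tumours and 91.2 ± 1.58 CPM in cultures) and Hep3B, and rose in HuH7 at a lower level (4.59 ± 2.18 CPM in tumours and 0.993 ± 0.294 CPM in cultures). COL1A1, a fibrillar collagen, rose in HuH7 (59.2 ± 28.5 CPM in tumours and 1.96 ± 0.0819 CPM in cultures, adjusted p = 1.93e-09) and PLC/PRF/5 (1.17, adjusted p = 0.0237), and fell in HepG2 (0.449 ± 0.229 CPM in tumours and 2.97 ± 0.332 CPM in cultures, adjusted p = 0.00334). KLF10, an early TGF-beta response gene, rose in HepG2, Hep3B and HuH7 by 1.30, 1.18 and 1.02, and CDKN2B, a cell cycle inhibitor, fell in HepG2 by 2.25 and rose in Hep3B by 1.96 and in HuH7 by 2.37. CDKN2B was highest in tumour 3 of Hep3B (655 CPM) and of HuH7 (350 CPM). KLF10 was highest in tumour 3 of HepG2 (277 CPM) and of HuH7 (407 CPM). PMEPA1, a TGF-beta target that dampens the pathway, fell in PLC/PRF/5 (5.53 ± 1.12 CPM in tumours and 18.6 ± 1.65 CPM in cultures, adjusted p = 1.02e-08).

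Targets of BMP signalling (13 tested, with ID1, ID2, ID3, SMAD6 and SMAD7 among them) came out as 0 higher and 5 lower (HepG2), 1 and 8 (Hep3B), 2 and 4 (HuH7), and 2 and 2 (PLC/PRF/5), with medians of -0.58, -1.38, -0.80 and 0.19. Here too the shares of all tested genes were 12.1%, 24.6%, 23.6% and 11.9% for higher and 13%, 27.4%, 19.8% and 5.61% for lower, with medians of -0.01, -0.05, 0.01 and 0.07, and 5 of the 13 targets are among the 10 genes themselves. ATOH8, a transcription factor in the hepcidin pathway, fell in HepG2 (0.0784 ± 0.0906 CPM in tumours and 7.64 ± 1.73 CPM in cultures), Hep3B (2.72 ± 1.68 CPM in tumours and 83 ± 3.79 CPM in cultures) and HuH7 (17.4 ± 7.16 CPM in tumours and 31.8 ± 2.58 CPM in cultures), and was under 1 CPM in both PLC/PRF/5 groups. Its log2 fold changes in these 3 lines were -2.99 (adjusted p = 2.17e-08), -4.59 (adjusted p = 6.01e-12) and -0.92 (adjusted p = 0.0133). HEY1, a Notch and BMP target, rose in PLC/PRF/5 (59.3 ± 42.8 CPM in tumours and 6.37 ± 0.409 CPM in cultures, adjusted p = 0.0017). SMAD9 fell in HepG2 (-0.91, adjusted p = 0.0399), Hep3B (-1.38, adjusted p = 0.00113) and HuH7 (-1.12, adjusted p = 0.00782), at levels of at most 5.33 CPM on average. Of the other signal-carrying SMADs, SMAD1 and SMAD3 rose in HuH7 by 1.40 each, SMAD1 rose in Hep3B by 0.51, SMAD2 rose in PLC/PRF/5 by 0.80 and fell in HuH7 by 0.37, and SMAD4 and SMAD5 fell in Hep3B by 2.40 and 2.01. Of the 3 E proteins that ID factors bind, TCF3 rose in Hep3B (0.95, adjusted p = 0.0218) and HuH7 (1.76, adjusted p = 0.000208), TCF12 rose in HuH7 (0.67, adjusted p = 0.029), and TCF4 was called higher in Hep3B (0.84, adjusted p = 0.0101) and lower in PLC/PRF/5 (-0.91, adjusted p = 0.0164). TCF4 was close to the floor there, with 1.16 ± 0.8 CPM in Hep3B tumours and 0.133 ± 0.132 CPM in Hep3B cultures, whose ranges overlapped, and 0.681 ± 0.417 CPM in PLC/PRF/5 tumours and 2.13 ± 0.607 CPM in PLC/PRF/5 cultures. These SMADs and E proteins are shown in full as 2 lists. In Hep3B tumours SMAD4 ranged from 0.518 to 12.9 CPM and SMAD5 from 8.28 to 30 CPM. In HuH7 tumours TCF3 ranged from 224 to 737 CPM and TCF12 from 265 to 656 CPM. Values of these SMADs and E proteins with GC and length trends removed, or without the tumours numbered 3, are not given here.

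Ligands, activators and antagonists changed mostly by line. The inhibin and activin subunit INHBB fell in HepG2 (-3.09, adjusted p = 8.99e-06) and Hep3B (-4.65, adjusted p = 9.85e-09), and INHA rose in HepG2, Hep3B and HuH7 by 1.29, 2.02 and 2.27. The activin subunit INHBC rose in HepG2 by 1.37 and in Hep3B by 1.35, the ligand GDF11 rose in Hep3B by 2.17 and in HuH7 by 1.03, and BMP7 rose in Hep3B by 2.57. In Hep3B cultures BMP7 averaged only 0.973 CPM, INHA 1.34 CPM and INHBC 2.4 CPM. GDF11 was highest in tumour 3 of Hep3B (681 CPM) and of HuH7 (250 CPM). THBS1, which activates latent TGF-beta, fell in HepG2 by 2.64 and in Hep3B by 4.56 (21.8 ± 17.5 CPM in Hep3B tumours and 416 ± 10.3 CPM in Hep3B cultures). THBS1 was lowest in tumour 3 of HepG2 (19.7 CPM) and of Hep3B (4.66 CPM). LTBP1, which holds latent TGF-beta in the matrix, rose in HuH7 (131 ± 11.2 CPM in tumours and 12.5 ± 1.03 CPM in cultures, adjusted p = 1.14e-10) and PLC/PRF/5 (1.11, adjusted p = 0.00177), and fell in HepG2 (-1.11, adjusted p = 0.00109) and Hep3B (-0.87, adjusted p = 0.00418). ITGB8, an integrin subunit that activates TGF-beta, also rose in HuH7 (121 ± 27.7 CPM in tumours and 5.76 ± 1.33 CPM in cultures, adjusted p = 1.78e-08) and, at a lower level, in Hep3B (1.67, adjusted p = 0.00151). In Hep3B the ITGB8 ranges overlapped near the floor, with 0 to 5.79 CPM in tumours and 0 to 0.132 CPM in cultures. NOG, which encodes the BMP antagonist noggin, rose in PLC/PRF/5 (161 ± 23.1 CPM in tumours and 17.8 ± 2.49 CPM in cultures, adjusted p = 5.95e-11), the line in which BMP2 and BMP4 rose, and averaged under 1 CPM in both groups of each other line. FSTL1, a secreted relative of follistatin, rose in HuH7 by 2.02 and fell in PLC/PRF/5 by 2.33. GREM1, the BMP antagonist gremlin, rose in HepG2 by 1.81 and in Hep3B by 2.75. It was near the floor in Hep3B cultures (0.339 CPM on average, 0 to 5 reads). Among HepG2 tumours GREM1 was highest in tumour 3 (29 CPM). SOSTDC1, another BMP antagonist, fell in Hep3B by 3.30 and in HuH7 by 1.24. The betaglycan gene TGFBR3 fell in HepG2 (-1.42, adjusted p = 3.16e-07) and rose in Hep3B (2.51), HuH7 (0.42) and PLC/PRF/5 (0.56). HFE2, which encodes the BMP co-receptor hemojuvelin, rose in Hep3B by 1.47 and fell in HuH7 by 4.09. AMHR2, the receptor of anti-Müllerian hormone, fell in HepG2 by 1.27 and rose in Hep3B by 1.90 and in HuH7 by 3.53. In Hep3B cultures AMHR2 was near the floor (0.194 CPM on average, 0 to 4 reads).

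**Figure D5:**
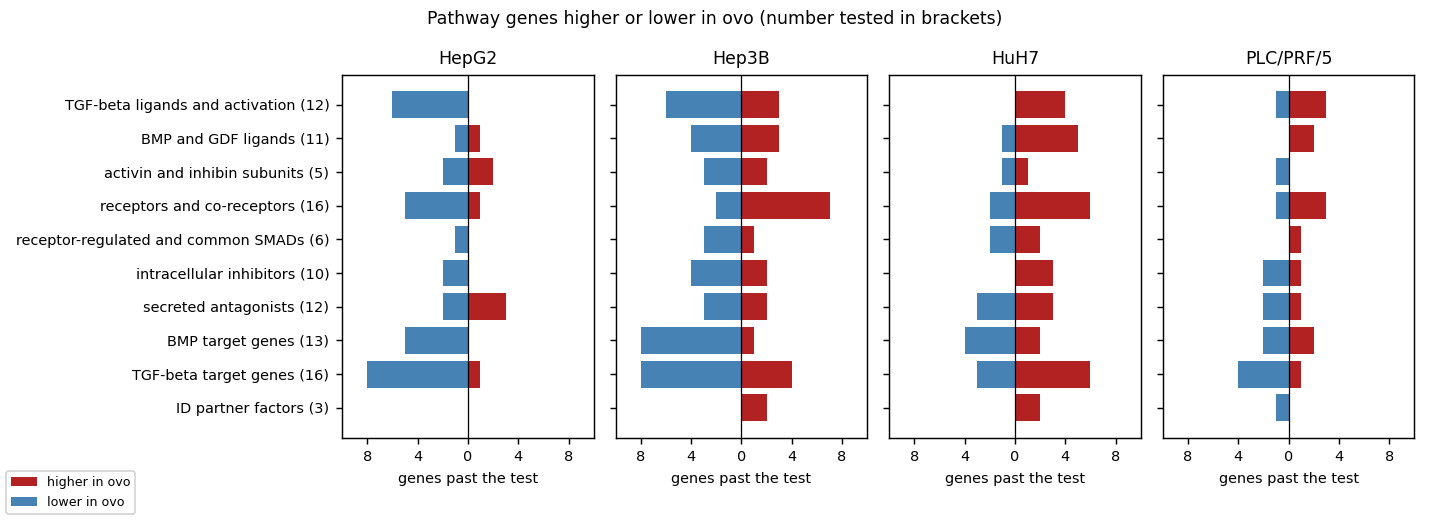
Number of genes higher (red, right of 0) or lower (blue, left of 0) in tumours than in cultures at an adjusted p under 0.05, for 10 lists of pathway genes (rows, number tested in brackets) in the 4 lines (panels). Targets of TGF-beta and BMP are mostly on the lower side in HepG2 and Hep3B. Of 16 receptors, 1 is higher and 5 lower (HepG2), 7 and 2 (Hep3B), 6 and 2 (HuH7), and 3 and 1 (PLC/PRF/5). Their median log2 fold changes are -0.15, 0.24, 0.10 and 0.02, in the same order. Shares of all tested genes are 12.1%, 24.6%, 23.6% and 11.9% for higher, and 13%, 27.4%, 19.8% and 5.61% for lower. A gene can stand in more than 1 list, and the 10 genes are counted in theirs.

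The 10 hepatocyte markers were read in all groups except that 6 of them averaged under 1 CPM in PLC/PRF/5 cultures, 2 of these (ALB and TTR) at 0 reads, and that ALB averaged 0.15 CPM in PLC/PRF/5 tumours. Their summed level moved with condition, with 152160 to 261803 CPM in HepG2 tumours against 88939 to 96445 CPM in cultures, 175301 to 315722 CPM in Hep3B tumours against 27075 to 28915 CPM in cultures, 4841 to 8003 CPM in HuH7 tumours against 14908 to 15301 CPM in cultures, and 783 to 2085 CPM in PLC/PRF/5 tumours against 22.4 to 29.4 CPM in cultures. Fibroblast markers summed to 4.16 to 4.77 CPM in HepG2 tumours (18.6 to 22 CPM in cultures), 275 to 508 CPM in Hep3B tumours (104 to 106 CPM in cultures), 553 to 864 CPM in HuH7 tumours (353 to 372 CPM in cultures) and 60.2 to 90.1 CPM in PLC/PRF/5 tumours (146 to 197 CPM in cultures). In Hep3B and HuH7 tumours PDGFRA made up most of the sum, and THY1 and POSTN held at most 1 read in each of the 28 libraries. Endothelial markers summed to at most 63.9 CPM in tumours and 49 CPM in cultures, with KDR and EMCN at 0 reads in all libraries, and leukocyte markers to at most 65.5 CPM in tumours and 401 CPM in cultures, where LYZ of HepG2 cultures made up most. The part of these levels in the differences of the 10 genes was not tested. In bulk RNA, fewer cells of a kind and less RNA per cell cannot be told apart.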

How the data were processed

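RNA of 28 libraries was read with DriverMap targeted amplicons from 500 ng of total RNA, per the labels' protocols. Per the submitters' processing notes the genome build was hg38; how reads were aligned and counted is not given in the sources used here, nor are any filters. The deposited values are a signal per amplicon, scaled by the authors to 500000 per library and not raw counts, and doubling them gave CPM. Values rose in equal steps, from which whole reads were recovered (in every library 99.9684% or more of values lay within 0.01 of a whole read, largest departure 0.105). The damaged value of KRT18 in 1 PLC/PRF/5 tumour was filled from its library's total (4020.83 CPM), and 7 symbols with more than 1 row were kept apart.

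Reads were scaled by TMM (edgeR 4.0.16) and filtered by group (filterByExpr, at least 10 reads), and log2(CPM + 1) was fitted with limma 3.58.1 (trended variance, two-sided, R 4.3.3) in 1 model of 8 groups, adjusted by Benjamini-Hochberg over 13100 genes. The procedure was tested on simulated data. The alternatives were scaling by DESeq2 size factors or by total counts alone, the low-value filter left out or raised (10 CPM in 3 libraries), pseudocounts of 0.25 and 5 CPM, edgeR's quasi-likelihood test and DESeq2 1.42.0 on recovered reads, each line alone, a replicate block, GC and length trends removed, the 4 tumours numbered 3 left out, and each library left out. These 12 alternatives other than the last were run for each line, and no line can be fitted alone for the mean and the interaction. No pair of replicate libraries agreed within sampling noise. The 10 genes and the pathway and marker lists were chosen with earlier results of these data known. Pathway genes named are those called alike in 4 lines and, per line, the 4 highest and 4 lowest called fold changes of genes averaging at least 10 CPM, beside 2 lists given whole. One gene that this rule names is not reported here. The genes most like a member are its 3 highest correlations. No protein sequences were used here.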

Additional observations from a re-analysis of the deposited data

Results flagged for a closer look

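Among 40 groups of 4 tumours (10 genes in 4 lines), 3 held a library far from the other 3, where chance flags about 1 group in 20. TGFBI was 838 CPM in HepG2 tumour 3, against 355 to 409 CPM in the other HepG2 tumours. SMAD7 was 1.38 CPM in the same tumour, against 19.1 to 22.1 CPM in the others. TGFB2 was 0.154 CPM in HepG2 tumour 4, which is 1 read, against 0 in the others. With 0 reads in all but 1 library a group is always flagged, so this flag carries no information.

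The fold change in ovo over in vitro differed between the 4 lines by limma's interaction test for 9 of the 10 genes, beside 41.8% of all tested genes. The adjusted p values were 1.44e-06 for TGFB2, 5.53e-06 for ID2, 1.3e-05 for TGFB1, 4.49e-05 for BMP2, 0.00059 for TGFBI, 0.000813 for ID1, 0.00179 for BMP4, 0.0162 for ID3 and 0.0215 for SMAD6. ID1 and ID3 had the same sign in all 4 lines and differed in size, from -0.87 to -2.61 for ID1 and from -0.93 to -2.19 for ID3.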

How the results depend on the processing

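Of 700 single-gene values under the alternatives that keep every library or leave out the 4 tumours numbered 3, 635 kept their direction and their side of the threshold, 25 lost a call, 27 gained one and 13 changed sign. A call was involved in TGFB1 in Hep3B with total counts alone (-0.18, adjusted p = 0.631) and BMP2 on the mean of lines with GC and length trends removed (0.43, adjusted p = 0.00548). The others were called neither way: with GC and length trends removed, TGFB1 in HuH7 (-0.08) and TGFB2 in HepG2 (0.34); without the tumours numbered 3, BMP4 in HuH7 (0.01) and BMP2 in HepG2 (-0.04); BMP2 in HepG2 with total counts alone (-0.02), a pseudocount of 0.25 (-0.00) and edgeR (-0.01); and ID2 in HuH7 with DESeq2 size factors (0.02), edgeR (0.00), DESeq2's test (0.04) and the replicate block (0.07). With 1 library left out, BMP2 in HepG2 ran from -0.05 to 0.04, BMP4 in HuH7 from -0.38 to 0.02 and ID2 in HuH7 from -0.08 to 0.08. The number of the 10 genes called moved by over 1.5 times in 3 cases: 2 in HuH7 with each line fitted alone, 3 in PLC/PRF/5 with the replicate block, and 8 in PLC/PRF/5 without the 4 tumours numbered 3. With 1 library left out at a time it ranged from 5 to 6 in HepG2, 8 to 9 in Hep3B, 3 to 5 in HuH7 and 3 to 5 in PLC/PRF/5, and from 6 to 8 on the mean of lines. Whether replicate numbers pair the libraries cannot be told from their 12 correlations between tumours and cultures, which ran from -0.0955 to 0.457. Libraries with different numbers were not compared. Total counts alone moved the median of all genes by -0.16 (HepG2), -0.69 (Hep3B), -0.14 (HuH7) and -0.14 (PLC/PRF/5), and gave 1199 higher and 2080 lower in HepG2 and 2528 and 3041 in HuH7. At 3 reads or fewer per library, TGFB2 and BMP2 in HepG2 are beyond what this depth can compare.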
